A study of Mus musculus with 6 samples.

Results

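The cytosolic ribosomal proteins are the structural proteins of the ribosome that works in the cytosol, named Rps in the small subunit and Rpl or Rplp in the large subunit. Members were the rows of the deposited expression table that map to a protein-coding gene with such a symbol and whose mean over the 6 libraries reached 1 FPKM (fragments per kilobase of transcript, also scaled to library size). The symbol pattern matched 87 rows, of which 5 were pseudogenes and were left out. Of the 82 protein-coding rows, Rpl10l and Rpl3l were listed at 0 in every library and fell outside the threshold, while Rpl39l, the member just inside it, had a mean of 1.50 FPKM. This left 80 members, 32 of the small and 48 of the large subunit, among 36811 rows in all and 11979 rows that reached the threshold and were tested. Rpl24 and Rpl41 had no matching row.

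RNA was sequenced in bulk from GFP-positive regulatory T cells (Treg), CD4 T cells that restrain immune responses, which were sorted from mouse spleen. The 3 libraries labelled cKO came from Bach2fl/fl Foxp3EGFP-Cre-ERT2 mice and the 3 labelled WT from Bach2+/+ Foxp3EGFP-Cre-ERT2 mice, all C57BL/6 and 18 to 21 weeks old, so that both groups carry the EGFP-Cre-ERT2 fusion at Foxp3 and differ in the floxed Bach2 alleles. Bach2 is a transcriptional repressor that restrains effector differentiation of T cells, and Cre-ERT2 is a recombinase that works once tamoxifen is given; the sources used here give neither the tamoxifen treatment nor the part of Bach2 that is deleted. Whether libraries of 1 group came from separate animals is not said in the labels, so a p-value measures the spread between these libraries, which may be technical.

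Bach2 measured 7.88, 9.19 and 6.44 FPKM across the cKO libraries against 3.29, 8.25 and 4.80 FPKM across the WT libraries, so its level did not check the labels, and every direction below is that between libraries labelled cKO and libraries labelled WT. The T cell genes Cd4 (318 to 474 FPKM) and Cd3e (312 to 488 FPKM) were high in every library, and Foxp3, the defining factor of Treg, lay between 5.16 and 9.44 FPKM. None of the markers of other cell types was at 0 in all libraries. The summed level of 6 myeloid markers was 204 to 878 FPKM in cKO, with the highest value in cKO 2, and 173 to 297 FPKM in WT. The depth of the libraries, estimated from the smallest steps between low values, was 3054699 to 5003093 fragments.

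Each ribosome holds a single copy of nearly every one of these proteins, and their mRNAs are among the most abundant in any growing cell. Activated T cells enlarge their ribosome pool before they divide, and the mRNAs of ribosomal proteins respond together to the kinase mTOR because they begin with a run of pyrimidines, the terminal oligopyrimidine tract. Some members have a second gene that encodes a relative, called here a paralog and recognised by its symbol alone. Rps27l is one of these paralogs, known as a target of the tumour suppressor p53. Ribosomal proteins that are free of the ribosome, above all Rpl5 and Rpl11, bind Mdm2 and thereby stabilise p53.

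The start of the genes showed what most members share. A RefSeq promoter entry (GRCm38.p6) was found for 60 of the 80 members, and 50 of these 60 (83.3%) held a run of at least 8 C or T letters on the coding strand within 40 bases before to 50 bases after the start, against 9719 of 27025 genes in the same table (36.0%). The motif CCGGAAG or its reverse complement, a sequence of the kind that ETS factors bind, lay within the 300 bases of 25 members (41.7%), against 2683 of all genes (9.93%). A reverse motif can overlap a pyrimidine run, and a match is a description of letters and not evidence of a site in use. The 60 bases from 45 before to 15 after the start are given for the pair on which the comparison below turns (Rps27 and its paralog Rps27l), for the paralog Rpl22l1, for the member with the largest standard error of its difference (Rpl38), for a long member that parted from the rest (Rpl4), and for a member with no such run (Rpl7l1). Capitals mark runs of at least 8 pyrimidines and CCGGAAG. Rps27l has another entry, at chr9:66946368-66946427, with neither such a run nor the motif, which is not printed. The coordinates are those of GRCm38.p6 and not of the older build that the authors' processing used.
Rps27, chr3:90213634-90213693, minus strand: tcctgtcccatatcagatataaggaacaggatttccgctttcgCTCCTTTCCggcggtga
Rps27l, chr9:66946041-66946100, plus strand: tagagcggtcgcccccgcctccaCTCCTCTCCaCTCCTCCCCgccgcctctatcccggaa
Rpl22l1, chr3:28805463-28805522, plus strand: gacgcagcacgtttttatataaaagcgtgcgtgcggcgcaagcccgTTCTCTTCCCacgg
Rpl38, chr11:114668535-114668594, plus strand: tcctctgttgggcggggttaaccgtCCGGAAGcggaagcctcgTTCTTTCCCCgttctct
Rpl4, chr9:64173342-64173401, plus strand: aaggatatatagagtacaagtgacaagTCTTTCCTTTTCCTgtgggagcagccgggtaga
Rpl7l1, chr17:46782642-46782701, minus strand: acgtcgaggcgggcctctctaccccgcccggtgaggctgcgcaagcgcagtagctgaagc

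The members spanned a wide range of levels on the FPKM scale, which is per length. A comparison between genes is approximate, since the levels in single libraries also varied with transcript length, as given below. The median over members of the mean level was 1430 FPKM, 78 of the 80 exceeded 100 FPKM in every library, and none was listed at 0. Rps27, a zinc-finger protein of the small subunit, had the highest mean (9775 FPKM), followed by the large-subunit proteins Rpl13a (7518 FPKM) and Rpl32 (6052 FPKM). The 10 highest members held 36.6% to 38.9% of the members' summed FPKM in each library. The lowest were Rpl39l (1.50 FPKM) and Rpl7l1 (53.1 FPKM), both paralogs and both more than 3 scaled median absolute deviations (MAD) below the members' median on the log2 scale, and then Rpl7a (127 FPKM). The order of the members was alike in every pair of libraries, with rank correlations of 0.873 to 0.992 over the 15 pairs, given as a description across genes.

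**Figure D1:**
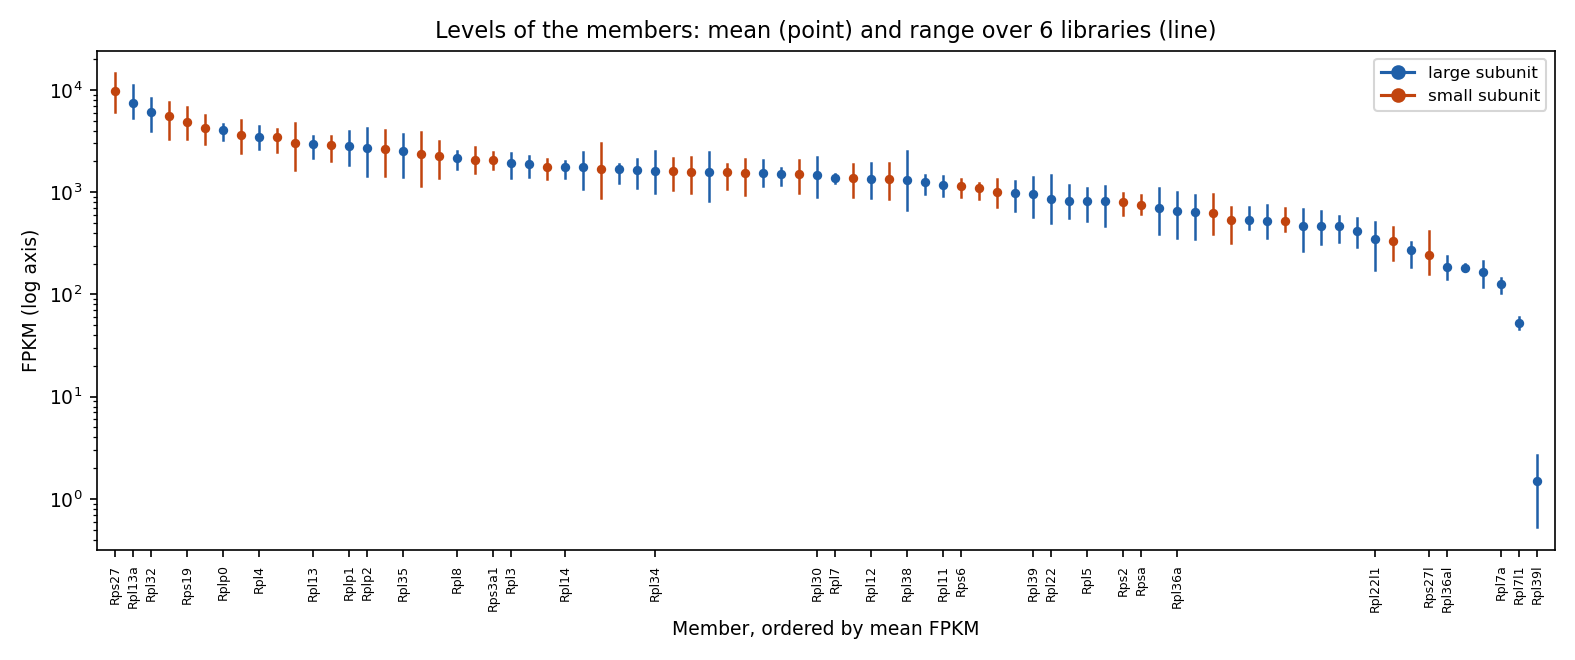
Mean FPKM over the 6 libraries (log axis) of each of the 80 members in order of level, with a line for the range over libraries and a colour for the subunit, with names for some of the members. Rps27 stands first at 9775 FPKM, and Rpl7l1 and Rpl39l stand apart at the low end at 53.1 and 1.50 FPKM.

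Ribosomal protein genes have many processed pseudogenes whose sequence is nearly the same as that of the parent, and how the authors' counting shared such reads was not stated in those sources. The 193 pseudogene rows with a ribosomal protein name summed to between 1214 and 1970 FPKM per library. The level of any member with such close copies is therefore uncertain.

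The members together took up a large share of the message in these cells, and that share varied more between the libraries of a group than between the groups' means. Their summed level reached 95071, 163261 and 139983 FPKM across the cKO libraries (in the order 1, 2, 3, as in all such sentences) against 139050.3, 120981 and 186259 FPKM across the WT libraries. The lowest sum was that of cKO 1 and the highest that of WT 3, and the groups overlapped. As a share of the FPKM of all protein-coding genes the members took 16.1% ± 3.59 (SD, n = 3) in cKO and 18.7% ± 3.61 (SD, n = 3) in WT. The mean sums, 132772 ± 34662 FPKM and 148763 ± 33706 FPKM (SD, n = 3 each), had a ratio of 0.893 (cKO over WT; exact two-sided permutation p = 0.6). The smallest p that 3 against 3 libraries allow is 0.1. The ratio was 0.898 for the small subunit (exact permutation p = 0.7) and 0.887 for the large subunit (exact permutation p = 0.5), so that neither subunit differed beyond the spread between libraries. In bulk RNA a smaller number of cells of a type and less RNA per cell cannot be told apart.

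Most members moved together from library to library. On the log2(FPKM + 1) scale the median member deviated from its own mean by -0.52, 0.23 and 0.02 across the cKO libraries and by 0.03, -0.21 and 0.45 across the WT libraries. Of the 80 members, 72 had their lowest level in cKO 1, while 47 had their highest in WT 3 and 22 in cKO 2. The ratio of a member's highest to its lowest library had a median of 2.07 and ran from 1.18 for Rpl29 to 5.07 for Rpl39l. Over the 6 libraries, a member's correlation with the median of the other members had a median of 0.933, and 51 members exceeded 0.9. These correlations share their libraries and their scaling and are a description.

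**Figure D2:**
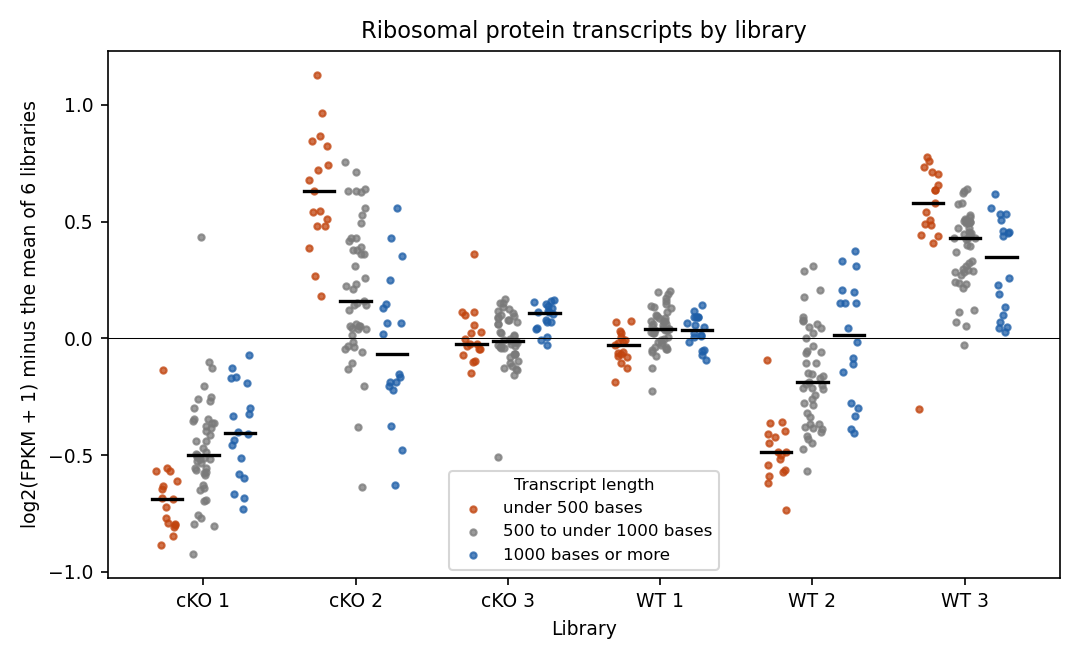
Deviation of each of the 80 members from its own mean (log2 of FPKM + 1) in each of the 6 libraries, 1 point per member, coloured by transcript length, with black bars at the median of each length class. Most members lie low in cKO 1 and high in WT 3, and the short transcripts (median 0.63) lie above the long ones (-0.07) in cKO 2.

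A small set of members did not follow that pattern. The correlation with the median of the others was under 0.5 in 12 members, of which 7 have a transcript of at least 1000 bases, against 18 of all 80, and it was below 0 in Rpl39l (-0.17), Rpl7l1 (-0.16), Rpl4 (-0.13), Rps2 (-0.09) and Rpl3 (-0.04). Rpl3 and Rpl4 are core proteins of the large subunit that contact its catalytic centre and its exit tunnel, and Rps2 lies near the mRNA entry of the small subunit. Rpl4 measured 3045, 2639.6 and 3596 FPKM across the cKO libraries against 3562, 4437 and 3547 FPKM across the WT libraries. Rpl3 measured 1679.6, 1378 and 2136 FPKM across the cKO libraries against 1988, 2414 and 2108 FPKM across the WT libraries. Both had their lowest level in cKO 2 and their highest in WT 2, where the median member was high and low respectively, and in both the groups overlapped. These genes were named after their values were seen.

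The spread between libraries depended on transcript length. Among the 17 members with a transcript under 500 bases the median deviation was -0.69, 0.63 and -0.02 across the cKO libraries, against -0.03, -0.49 and 0.58 across the WT libraries. Among the 18 members with at least 1000 bases the values were -0.41, -0.07 and 0.11 for cKO, against 0.04, 0.01 and 0.35 for WT. The swings of cKO 2 and WT 2 were thus near 0 in the median of the long members. Single long members differed, with a correlation with the median of the others of 0.993 in Rps20 (3706 bases) and -0.13 in Rpl4 (1538 bases). Rps20 was named after its values were seen. The other protein-coding genes of at least 100 FPKM with a transcript under 500 bases (n = 32) were likewise high in cKO 2 (0.96) and low in cKO 1 (-0.49) and WT 2 (-0.65), and those of at least 1000 bases (n = 927) lay within -0.10 and 0.09 in every library. The rank correlation of length with the deviation over the 80 members was -0.63 in cKO 2 and 0.66 in WT 2, and that of length with the mean level was 0.0237. The low level of the members in cKO 1 and their high level in WT 3 appeared in all length classes of members (-0.41 or lower, and 0.35 or higher). The part that length has in these patterns beyond these values was not tested.

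In the comparison of cKO with WT no member passed the test. The test was limma on log2(FPKM + 1) over all 11979 genes, with Benjamini-Hochberg adjustment at 0.05, and it called 0 of 80 members against 0.0250% of all genes tested (3 of 11979). The lowest adjusted p of a member was 0.915 (limma). At an unadjusted p under 0.05 it gave 1 member higher in cKO (Rps27l; 3.59% of all genes) and 1 lower (Rpl14; 1.78% of all genes), and neither count exceeds the background. The fitted log2 difference was above 0 in 8 of the 80 members, against 55.0% of all genes tested, and its median was -0.16 against 0.03 for all genes. Without the library cKO 1 the median was 0.04 with 43 members above 0, and without WT 3 it was -0.02 with 38 above 0. The low median thus rested on these libraries before any correction for transcript length. The standard error of a member's difference had a median of 0.27 (range 0.12 to 0.55), and the 95% interval included 0 in 78 of the 80.

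**Figure D3:**
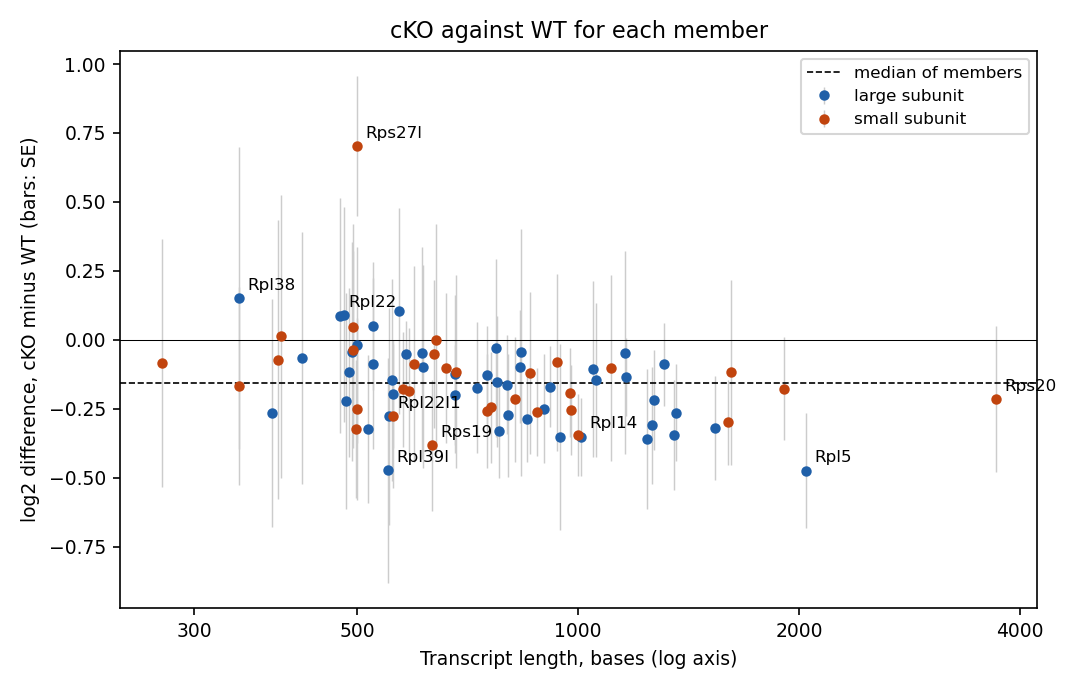
Fitted log2 difference (cKO minus WT, on log2(FPKM + 1)) of each of the 80 members against transcript length in bases (log axis), with bars for the SE. Most points lie below 0 with a median of -0.16, and Rps27l stands apart at 0.70.

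The difference had the same sign in nearly every class of member. Its median was -0.17 in the 32 proteins of the small subunit and -0.15 in the 48 of the large subunit. It was -0.04 in the 17 members with transcripts under 500 bases, 6 of which were above 0, -0.17 in the 45 of intermediate length, and -0.22 in the 18 longer ones, none of which was above 0. After a correction for transcript length within each library, which was added after seeing the data, 2 of 80 members were above 0 against 50.0% of all genes, and the groups did not overlap in 30 members that were lower in cKO, against 5.58% of all genes. With that correction 0 members passed the adjusted threshold (limma; 0.0167% of all genes), 21 were lower at an unadjusted p under 0.05 (2.80% of all genes), and the median was -0.26. The members share 1 pattern over the libraries, so such a count is not one of independent genes. With the correction, the members' median level deviated from its mean over libraries by -0.35, -0.10 and -0.06 across the cKO libraries. The values were 0.12, 0.02 and 0.36 across the WT libraries. The correction was not combined with leaving out a library.

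The groups did not overlap in 5 members that were lower in every cKO library than in any WT library, against 3.75% of all genes tested. These were Rpl5, Rpl14, Rps2, Rpl13 and Rpl8, of which Rpl14, Rps2, Rpl13 and Rpl8 were named after their values were seen. Rpl5, which carries the 5S RNA into the large subunit together with Rpl11 and binds Mdm2 when free, measured 735, 518 and 827 FPKM across the cKO libraries against 871, 891 and 1088 FPKM across the WT libraries. The lowest WT library lay just above the highest cKO library. The means were 693 ± 158 and 950.4 ± 119.9 FPKM (SD, n = 3 each), with a log2 difference of -0.47 (SE 0.21; limma adjusted p = 0.925), and of -0.28 without cKO 2. Its partner Rpl11 measured 909.6, 1193 and 1283 FPKM across the cKO libraries against 1183, 993 and 1452 FPKM across the WT libraries, with overlapping groups and a log2 difference of -0.10 (limma adjusted p = 0.977).

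Rpl14, a large-subunit protein, measured 1386, 1552 and 1708 FPKM across the cKO libraries against 1926, 1939 and 2044 FPKM across the WT libraries. Its WT libraries were close to each other, and all 3 lay above every cKO library. The means were 1549 ± 161 and 1969 ± 64.4 FPKM (SD, n = 3 each), and the log2 difference was -0.35 (SE 0.14; limma adjusted p = 0.921). Rps2 measured 722, 605 and 781 FPKM across the cKO libraries against 841, 978 and 851 FPKM across the WT libraries, a log2 difference of -0.35. The corresponding differences were -0.33 for Rpl13 and -0.29 for Rpl8, a protein at the catalytic centre of the large subunit. Without cKO 1 they were -0.21 and -0.18. None of the 5 passed the test (limma).

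Among the members with the lowest fitted differences were also Rps19, a small-subunit protein mutated in Diamond-Blackfan anaemia, and Rpl12, at the base of the stalk. Rps19 measured 3333, 4653 and 4702 FPKM across the cKO libraries against 5381, 4431 and 6785 FPKM across the WT libraries. Its groups overlapped through WT 2, and the log2 difference was -0.38. Rpl12 differed by -0.36 and Rpl35 by -0.35, and in both the lowest library was cKO 1 and the highest was WT 3. Without cKO 1 the differences of Rps19, Rpl12 and Rpl35 were -0.22, -0.15 and -0.06, and without WT 3 they were -0.22, -0.17 and -0.13. Rpl39l, with the joint lowest difference (-0.47), rests on about 1.45 to 5.85 fragments per library and cannot be read at this depth.

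The 3 proteins of the stalk, which recruits the GTPases of translation, had overlapping groups. Rplp0, the stalk's base, measured 3242, 3561 and 4382 FPKM across the cKO libraries against 4315, 4678 and 4344 FPKM across the WT libraries (log2 difference -0.26). Rplp1 measured 1833, 3956 and 2717 FPKM across the cKO libraries against 2765, 1941 and 3817 FPKM across the WT libraries (-0.02). Rplp2 measured 1448, 4215 and 2441 FPKM across the cKO libraries against 2483, 1727 and 3974 FPKM across the WT libraries (-0.06). Rplp1 and Rplp2, which have short transcripts, were highest in cKO 2 and lowest in cKO 1, whereas Rplp0 was highest in WT 2. Rpsa, the small-subunit protein that also acts as a laminin receptor, differed by -0.30, and Rps6, the substrate of the S6 kinases downstream of mTOR, by -0.26, with overlapping groups in both. Without cKO 1 the difference was -0.17 for Rplp0 and -0.15 for Rps6.

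Among the members above 0 were Rps27l (0.70), Rpl38 (0.15), Rpl30 (0.10), Rpl34 (0.09), Rpl22 (0.09), Rpl36al (0.05) and Rps21 (0.01). Rpl38, known for its part in the translation of Hox mRNAs, measured 665, 2551 and 1091 FPKM across the cKO libraries against 1067, 699.5 and 1811 FPKM across the WT libraries. A single library, cKO 2, lay far above the rest, the groups overlapped, and the standard error of the difference was the largest of any member (0.55). Rpl30 and Rpl34 had the same order, lowest in cKO 1 and highest in cKO 2.

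Rps27l was the member that parted from the others between the groups. It measured 212, 414 and 300.02 FPKM across the cKO libraries against 204, 158 and 189 FPKM across the WT libraries. Every cKO library lay above every WT library, by a narrow margin between cKO 1 and WT 1. The means were 309 ± 101 and 183 ± 23.9 FPKM (SD, n = 3 each), a ratio of 1.68, and the log2 difference was 0.70 (SE 0.25, 95% interval 0.09 to 1.31; limma adjusted p = 0.915). It was the only member that was higher with groups that do not overlap, against 6.96% of all genes tested, and the only one whose difference lay more than 3 scaled MAD from the members' median (5.83). Without cKO 2 the log2 difference was 0.46, without cKO 1 it was 0.95, and with trimmed-mean scaling the groups overlapped.

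Rps27l encodes a close relative of Rps27 that can take its place in the ribosome. Over their coding sequences of 252 bases the genes are identical at 192 bases (76.2%). The longest run that their whole transcripts share is 11 bases. The first 60 coding bases from GENCODE M21 (GRCm38) show how closely spaced the differences are, with the 18 bases that differ in capitals.
Rps27: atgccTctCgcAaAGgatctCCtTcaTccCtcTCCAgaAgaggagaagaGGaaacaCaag
Rps27l: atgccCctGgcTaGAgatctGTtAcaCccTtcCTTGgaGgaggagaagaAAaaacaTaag

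Rps27 followed the other members, with 6139, 12245 and 9214 FPKM across the cKO libraries against 9190.5, 7319 and 14541 FPKM across the WT libraries, with a log2 difference of -0.17 (limma adjusted p = 0.977). As a percentage of Rps27 in the same library, Rps27l amounted to 3.45%, 3.38% and 3.26% across the cKO libraries against 2.22%, 2.15% and 1.30% across the WT libraries. The 3 cKO libraries were close to each other and all above the WT libraries. The means were 3.36% ± 0.0984 and 1.89% ± 0.516 (SD, n = 3 each), a ratio of 1.78 (exact two-sided permutation p = 0.1, the smallest that 3 against 3 allow, and 0.25 adjusted over the 5 paralog pairs). The ratio was 1.54 without WT 3 and 1.95 without WT 1. Set against the member median, Rps27l came to 23.4%, 26.6% and 21.8% in the cKO libraries, against 14.4%, 13.4% and 9.89% in the WT libraries. Since this pair was taken up with the difference of Rps27l in view, its ratio is not independent support for it.

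**Figure D4:**
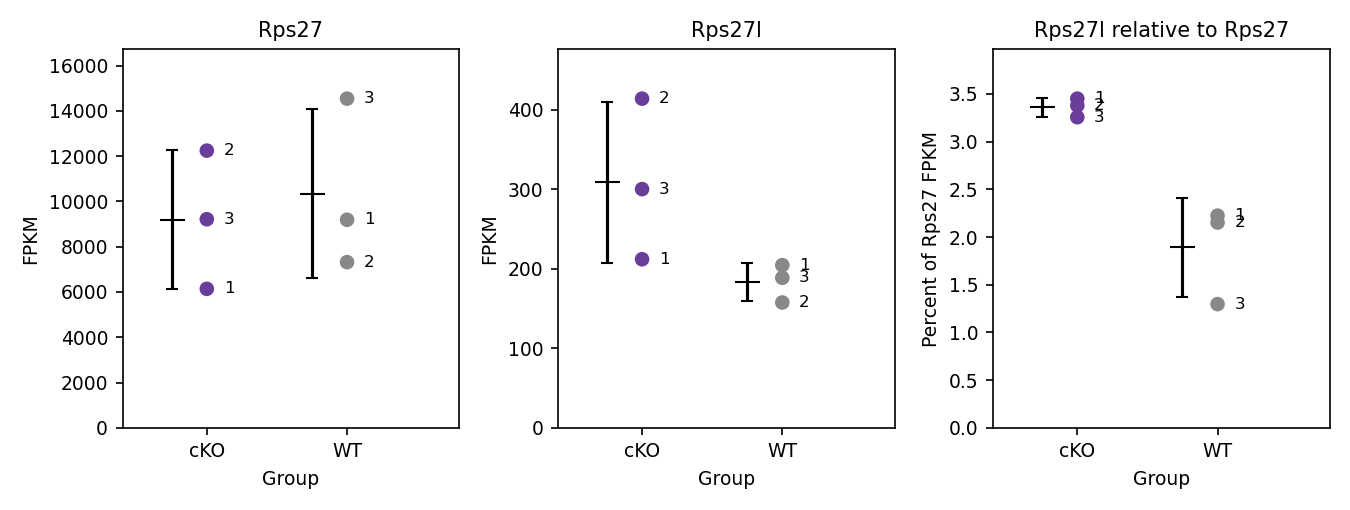
FPKM of Rps27l and of Rps27, and Rps27l as a percentage of Rps27, in each of the 3 cKO and 3 WT libraries, 1 point per library, with the mean and SD of each group. The percentage lies between 3.26% and 3.45% in cKO and between 1.30% and 2.22% in WT.

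Markers of another cell type were also apart between the groups. The summed level of 4 erythroid markers came to 129, 249 and 277 FPKM across the cKO libraries against 96.3, 33.0 and 112 FPKM across the WT libraries. Within each group these markers and Rps27l were lowest in the same library, cKO 1 and WT 2. Such lows were common among the members, of which 72 of 80 had their lowest level in cKO 1. The members with a transcript under 500 bases, as in Rps27l (499 bases), had a median deviation of -0.49 in WT 2, their lowest among the WT libraries. The markers were highest in cKO 3 and WT 3, and Rps27l in cKO 2 and WT 1. The summed myeloid markers were highest in cKO 2 (878 FPKM), with overlapping groups. The part of such cells in the level of Rps27l was not tested.

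None of the other paralogs was higher in every cKO library than in every WT library. Rpl22l1 measured 173, 509.99 and 301 FPKM across the cKO libraries against 346, 296 and 463 FPKM across the WT libraries (log2 difference -0.28), and its core partner Rpl22, which is known for its part in T cell development, measured 498, 1467 and 779.9 FPKM against 772, 562 and 1096 FPKM (0.09). Rpl22l1 amounted to 34.7%, 34.8% and 38.6% of Rpl22 in the cKO libraries, against 44.8%, 52.6% and 42.3% in the WT libraries. The groups did not overlap, and the ratio of the means was 0.774 (exact two-sided permutation p = 0.1, adjusted over the 5 pairs 0.25). The coding sequences of this pair share 66.9% of their bases, and their whole transcripts share a run of up to 26 bases.

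For the remaining 3 pairs the percentages overlapped between the groups. Rpl36al was 33.1% ± 9.51 of Rpl36a in cKO and 26.9% ± 3.88 in WT (SD, n = 3 each; exact permutation p = 0.6). Rpl7l1 was 3.91% ± 0.199 of Rpl7 in cKO and 3.80% ± 0.196 in WT (exact permutation p = 0.5). Rpl39l was 0.166% of Rpl39 in cKO and 0.198% in WT (exact permutation p = 0.5), at the few fragments given above. The adjusted p over the 5 exact tests was 0.6 for each of these pairs. The coding sequences of Rpl36a and Rpl36al, and of Rpl39 and Rpl39l, are identical at 87.7% and 85.0% of their bases. Their whole transcripts share runs of up to 24 and 38 bases respectively. Rpl7 and Rpl7l1 are less alike, with 50.1% of aligned coding bases identical and a longest shared run of 10 bases. Whether reads were shared between the genes of a pair was not tested.

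The genes that build, feed and control the ribosome were followed in 5 other lists, and no gene of any list passed the adjusted threshold (limma). Of 49 tested ribosome biogenesis genes, 9 were above 0 (18.4%, against 55.0% of all genes), the median log2 difference was -0.16, and 12 were lower with groups that do not overlap (3.75% of all genes) while 1 was higher (6.96% of all genes). Nop56, a core protein of the box C/D small nucleolar particles that guide methylation of ribosomal RNA, measured 204, 200.03 and 205 FPKM across the cKO libraries against 311, 238 and 312 FPKM across the WT libraries (log2 difference -0.49; limma adjusted p = 0.874). Its cKO libraries were almost level with each other and below all WT libraries. Nob1, the nuclease that finishes the 18S RNA, differed by -0.43 (limma adjusted p = 0.863), and Polr1b, a subunit of RNA polymerase I, by -0.56 (limma adjusted p = 0.875). With libraries scaled to equal sums the median of this list was -0.0063, against 0.18 for all genes. Under that scaling 2 of its genes were lower with groups apart, against 1.43% of all genes.

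Of 39 tested translation factors, 11 were above 0, with a median of -0.07. With groups that do not overlap, 1 was lower (Rack1; 3.75% of all genes) and 2 were higher (Eif4a1 and Eif4a2; 6.96% of all genes). Neither count exceeds the background. Rack1, a scaffold protein that sits on the small subunit, measured 2793, 2510.4 and 2953 FPKM across the cKO libraries against 3389, 3651 and 3828 FPKM across the WT libraries. All cKO libraries lay below all WT libraries, with means of 2752 ± 224 and 3622 ± 221 FPKM (SD, n = 3 each) and a log2 difference of -0.40 (limma adjusted p = 0.915). Eif4a1, the helicase of cap-dependent initiation, had the opposite sign, with means of 152 ± 1.87 FPKM in cKO and 125 ± 3.88 FPKM in WT (0.28; limma adjusted p = 0.915). Of 26 tested regulators of ribosomal protein mRNAs, 11 were above 0 with a median of -0.04. Among them was Myc, which drives ribosomal protein and biogenesis genes. It had means of 76.3 ± 5.73 FPKM in cKO and 94.5 ± 7.77 FPKM in WT, with groups apart (log2 difference -0.30, limma adjusted p = 0.925). Tbp differed by -0.46, also with groups apart (limma adjusted p = 0.915). Trp53, the gene of p53, had means of 234 ± 37.0 FPKM in cKO and 281 ± 12.1 FPKM in WT, with groups apart (-0.28, limma adjusted p = 0.925). Mdm2 differed by -0.26 and Cdkn1a by -0.40, with overlapping groups in both. Trp53, Mdm2 and Cdkn1a were named after their values were seen. Of the 26 genes, 3 were lower with groups that do not overlap (3.75% of all genes).

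The proteins of the mitochondrial ribosome, which are encoded in the nucleus by other genes, had a median log2 difference of 0.11, against -0.16 for the cytosolic ones. All 77 were tested, and 56 (72.7%) were above 0. Without cKO 2 the median was -0.06 and 32 were above 0, and it was 0.01 with 40 above 0 without WT 2. It ranged from 0.02 with library weights (42 above 0) to 0.27 with equal sums (71 above 0) over the other settings. With equal sums the median of all genes was 0.18. With groups that do not overlap, 2 were higher (6.96% of all genes) and 0 lower (3.75% of all genes), which does not exceed the background. Of 14 tested genes of the ubiquitin and ribosome surveillance list, which clear stalled ribosomes, 6 were above 0 with a median of -0.02. The difference between the medians of the cytosolic and the mitochondrial ribosome was not tested.

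**Figure D5:**
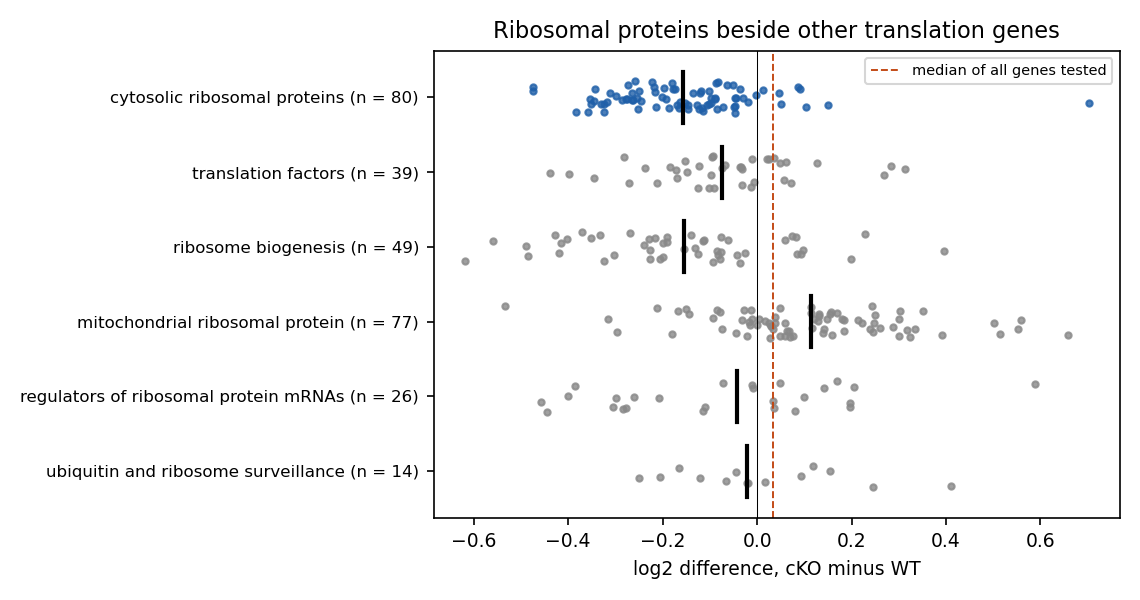
Fitted log2 difference (cKO minus WT) of each gene of the cytosolic ribosomal proteins and of the 5 other lists, 1 point per gene, with each list's median. The medians are -0.16 for the cytosolic ribosomal proteins and for ribosome biogenesis and 0.11 for the mitochondrial ribosome, against 0.03 over all genes tested.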

How the data were processed

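Sorted Treg RNA was extracted with RNeasy Plus Mini columns, made into SmartSeq2 libraries and sequenced on an Illumina instrument, as the labels' protocols state. The submitters' processing notes name FastQC, cutadapt, HISAT2 and the mouse builds NCBIM37 and mm9, without versions. The authors deposited FPKM values for 36811 genes in 6 libraries, in a table named after cuffnorm. Its annotation, strand setting and filters are not given in these sources. Groups follow the sample labels, and the Bach2 high and low reporter cells of the series' design text were not analysed here.

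Identifiers were matched to symbols for 31840 of 36811 rows. The 11979 genes whose mean reached 1 FPKM were tested on log2(FPKM + 1) with limma 3.58.1 (R 4.3.3), using a variance trend, no block and Benjamini-Hochberg adjustment at 0.05. Such differences understate the change of low genes, and folds are ratios of mean FPKM. Intervals and sums come from 3 libraries per group, and single values were compared by exact permutation over libraries. FPKM sums lay between 1502822 and 1940807 per library, with 32.4% to 46.9% in the 4 highest rows. Depth was estimated from low values of genes with transcripts of at least 2000 bases. Transcript length was that of the shortest complete principal coding transcript of GENCODE M21. Whether these cells express that transcript was not tested, and the length classes and the length correction rest on it. Python 3.11.15 with numpy 2.4.6, pandas 2.3.3, matplotlib 3.10.9 and biopython 1.88 handled tables, sequences and figures.

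The members, the lists and the alternatives were chosen with earlier results of these data known. The named members were the 5 highest and 5 lowest by difference, those more than 3 scaled MAD from the median level, paralogs with their partners, the stalk proteins, Rpsa, Rps6, Rpl5, Rpl11 and the 3 highest and lowest by level; from each other list the 3 smallest p-values, not all of which are printed. The values of 1 member are not reported here by name. Alternatives were other pseudocounts (0.1 and 5), filters (none and 5 FPKM), scalings, variance models, library weights, leaving out each library, and a replicate block. On simulated data for cKO against WT (11979 genes, 200 changed, 10 simulations) the test recovered 47.8% of 2-fold and 84.7% of 4-fold changes, with 4.55% of calls false. The simulation gave each gene independent noise and changed only genes above a set level. The members move together between libraries, so these rates may not hold for them.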

Additional observations from a re-analysis of the deposited data

How the results depend on the processing

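No member was called by limma under any of 19 alternatives; the lowest adjusted p of a member was 0.343, with library quality weights. The members' median log2 difference was -0.16, -0.32 without cKO 2 and 0.04 without cKO 1, and -0.00061 with equal sums, which moved the median of all genes from 0.03 to 0.18. The ratio of summed FPKM lay between 0.790 and 1.02 with a library left out. Members lower with groups apart numbered 5 (3.75% of all genes), and 17 with quantile normalization (5.23%), 18 with equal protein-coding sums (4.26%), 9 with trimmed-mean scaling (5.09%), 1 with equal sums (1.43%) and 30 with the length correction (5.58%). The deviations of same-numbered libraries from their group means had correlations of -0.06, -0.18 and -0.02 over all genes. Over the members these were -0.25, -0.84 and -0.42. With 3 libraries per group such values cannot show whether the numbers pair the libraries. With a replicate block 0 members and 1 gene were called and the median was -0.16. Of 26 members named by rule, 15 turned direction somewhere. With quantile normalization these were Rpl13a (0.035), Rpl36al (-0.051) and Rps27 (0.037). With equal sums they were Rpl11 (0.060), Rpl13a (0.052), Rpl39 (0.11), Rpl7 (0.022), Rpl7l1 (0.065), Rplp1 (0.14) and Rplp2 (0.093). With library weights they were Rpl13a (0.026), Rpl22 (-0.022), Rpl36al (-0.047), Rpl38 (-0.011) and Rpl7l1 (0.070), and with the length correction Rpl22 (-0.035), Rpl30 (-0.026), Rpl34 (-0.031) and Rpl36al (-0.076). With a library left out the ranges were -0.23 to 0.051 for Rpl11, -0.33 to 0.18 for Rpl13a, -0.32 to 0.45 for Rpl22, -0.66 to 0.11 for Rpl22l1, -0.19 to 0.46 for Rpl30, -0.25 to 0.44 for Rpl34, -0.52 to 0.12 for Rpl36a, -0.13 to 0.22 for Rpl36al, -0.38 to 0.59 for Rpl38, -0.37 to 0.29 for Rpl39, -0.29 to 0.26 for Rplp1, -0.45 to 0.32 for Rplp2 and -0.40 to 0.11 for Rps27. The median of the translation factors was -0.13 with quantile normalization, 0.083 with equal sums, -0.013 with weights, -0.14 with the length correction and -0.11 to 0.026 with a library left out. Equal sums gave -0.0063 for ribosome biogenesis and 0.11 for the regulators, and the surveillance list ranged from -0.15 to 0.15 with a library left out. The length correction, the alternatives for the lists and those for the levels and the share of Rps27 were chosen after seeing the data, and the cause of these shifts was not tested.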

Other observations

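Some ribosomal protein genes carry a small nucleolar RNA in an intron, which is released from their own transcript. The 30 members of this kind had a median level of 1419 FPKM and a median log2 difference of -0.18, with 1 above 0, and the other 50 had 1436 FPKM and -0.13, with 7 above 0. The 4 members on the X chromosome had a median of -0.18, with 0 above 0. The difference between these classes was not tested.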
